A study of Mus musculus with 6 samples.

Results

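The genes examined here are those of the mouse major histocompatibility complex (MHC) together with the machinery that loads peptides onto its class I molecules. They were taken from the gene names of the count table: every name that starts with H2- plus B2m, Tap1, Tap2, Tapbp, Tapbpl, Erap1, Nlrc5, Ciita, Cd74 and Cd1d1, which gave 54 of 34718 genes. The cells were Hepa1-6, a mouse hepatoma line grown in culture. Of the 6 RNA sequencing libraries, 3 were labelled control and titled shNC, and 3 were labelled Zfp207 knockdown and titled shZfp207, after a short hairpin against the zinc finger gene Zfp207. The labels give no further treatment, and neither the number of hairpins nor whether the lines were clones is given in the sources used here, so loss of Zfp207 and effects of a single hairpin or derived line cannot be told apart. Libraries are called shNC 1 to 3 and shZfp207 1 to 3 here, by the numbers in their titles. Nothing in the labels says that the replicates were separate cultures, so the p-values rest on a spread between libraries that may be technical.

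MHC class I molecules are a heavy chain paired with beta-2-microglobulin, the product of B2m, and they show peptides from inside the cell to CD8+ T cells. The peptides are pumped into the endoplasmic reticulum by a transporter of 2 chains, TAP1 and TAP2, trimmed there by the aminopeptidase ERAP1, and fitted to the heavy chain with the help of tapasin, the product of Tapbp, and its relative TAPBPR, the product of Tapbpl. NLRC5 activates transcription of class I genes and CIITA that of class II genes. Classical heavy chains, in mouse H2-K1 and H2-D1, present varied peptides, whereas nonclassical ones have narrower ligands or other receptors. MHC class II molecules present peptides from outside the cell and are chiefly found on professional antigen-presenting cells. Tumour cells with little class I on their surface are poorly seen by CD8+ T cells, and the title of the series names infiltration by these cells.

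Class I promoters are known for a compact upstream enhancer with an element for NF-kappaB, an element for interferon regulatory factors and, nearer the start, an X2 and a Y box. The stretch from the first to the second element is shown because both elements' letters together were found only in promoters of these genes and H2-Q7. The sequences are from RefSeq (GRCm38.p6), 5′ to 3′ on each gene's strand, with 2 motifs in capitals: on the left the kappaB-like motif, searched with any base at the third and the eighth letter and the other letters as in H2-D1, and on the right GTTTCACTT (ISRE-like).
H2-K1: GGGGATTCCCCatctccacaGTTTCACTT
H2-D1: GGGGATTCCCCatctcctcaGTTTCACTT
H2-Q4: GGGGATTTCCCatctccccaGTTTCACTT
H2-Q6: GGGGATTCCCCatctccccaGTTTCACTT
H2-M3: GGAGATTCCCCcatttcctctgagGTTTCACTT

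These stretches lie at chr17:34000430-34000458 (minus strand) for H2-K1 and, on the plus strand, at chr17:35262923-35262951 for H2-D1, chr17:35379443-35379471 for H2-Q4, chr17:35424677-35424705 for H2-Q6 and chr17:37270108-37270140 for H2-M3. That of H2-D1 falls in the 5′ untranslated part of a longer transcript in GENCODE M21. Searched on both strands of the 250 bases before the start of 32851 RefSeq promoters, the kappaB-like letters occurred in 0.183% of promoters, the ISRE-like letters in 0.338%, TGACG (X2-like) in 17.8% and CCAAT (the core of the Y box) in 33.8%. Both enhancer motifs occurred together in 7 promoters, of 6 genes, all of them among the 54: H2-K1, H2-D1, H2-Q4, H2-Q6, H2-Q7 and H2-M3. All 4 motifs occurred in 6 promoters, those of the same genes without H2-Q6, H2-K1 having 2 annotated starts. In H2-Q7 the full kappaB-like match stood 31 bases before the start and the ISRE-like match 114. The letters GGGGATTCCCA, which miss the kappaB-like motif at the last letter alone, stand ahead of that ISRE-like match in H2-Q7. With them the order is the one shown above, so the search does not show a reversed enhancer. The motifs were written after these promoters had been read, so the counts describe the sequences and test nothing. Promoters were found for 35 of the 54 genes.

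The longer upstream windows of the classical gene H2-K1 and of H2-M3, a nonclassical gene that was higher after knockdown, are shown so that the spacing can be compared. All 4 motifs are in capitals, and the bases of the H2-M3 window nearest its start, which GENCODE annotates as untranslated, are left out.
H2-K1: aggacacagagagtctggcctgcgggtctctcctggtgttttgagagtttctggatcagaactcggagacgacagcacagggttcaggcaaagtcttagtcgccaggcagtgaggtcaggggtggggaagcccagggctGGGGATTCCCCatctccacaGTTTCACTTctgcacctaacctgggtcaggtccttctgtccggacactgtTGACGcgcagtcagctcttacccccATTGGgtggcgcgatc
H2-M3: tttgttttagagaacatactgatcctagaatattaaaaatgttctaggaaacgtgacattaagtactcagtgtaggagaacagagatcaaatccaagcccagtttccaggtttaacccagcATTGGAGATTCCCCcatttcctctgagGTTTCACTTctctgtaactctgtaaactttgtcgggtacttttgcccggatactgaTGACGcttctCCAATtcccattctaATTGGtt

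The windows are chr17:34000348-34000597 on the minus strand for H2-K1 and chr17:37269984-37270219 on the plus strand for H2-M3. CCAAT appears as ATTGG where it is read from the other strand, and in H2-M3 its first copy overlaps the kappaB-like letters. Apart from that first copy in H2-M3, the order in both genes is kappaB-like, ISRE-like, X2-like and CCAAT. A match is a description of letters and not a bound site. These same letters stood before a gene that was almost silent in all libraries (H2-K1), 1 that was abundant (H2-D1) and 1 that rose after knockdown (H2-M3), as the values below show. The promoter of Nlrc5 and that of H2-Q1 were not found in the table, and that of H2-T22, which rose, held the ISRE-like letters, TGACG and CCAAT but not the kappaB-like ones.

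The libraries held 11933736 to 16248346 counts. Zfp207 was lower in every knockdown library, at 46.8 to 48.1 counts per 1000000 counts of the library (CPM) against 141.4 to 216.8 CPM in the controls (log2 fold change -1.95 with SE 0.17, edgeR adjusted p = 0.00236). The library shNC 1 stood apart: genes of the mitochondrial genome made up 10.51% of this library, 2.89% of shNC 2, 2.67% of shNC 3, and 5.6% to 6% of the knockdown libraries, and across genes its log2 values correlated at 0.957 with the other controls, which correlated at 0.993 with each other. Summed over 9 hepatocyte markers, the level was 2506 to 3294 CPM in controls and 4973 to 5279 CPM in knockdown libraries. Of these 9 genes, 3 were called higher (Alb, Afp and Apoa1, with log2 fold changes of 0.85 to 1.29) and 2 lower (Trf and Apoa2, with -0.55 and -2.23), while Ttr and Serpina1a had 0 to 5 counts per library. Markers of leukocytes and antigen-presenting cells summed to 1.37 to 3.18 CPM in controls and 4.58 to 5.45 CPM in knockdown libraries over 10 genes, with Cd3e, Itgax and Xcr1 at 0 in all 6 and Ptprc at 0 to 8 counts. Of these 10, Csf1r was called higher, with 2 to 14 counts in controls and 45 to 52 in knockdown libraries. Of 6 fibroblast markers Dcn made nearly all of the sum (2044 to 2309 CPM in controls and 2701 to 2783 CPM in knockdown libraries), and its change did not pass (log2 fold change 0.33, edgeR adjusted p = 0.0968). Pdgfra was the 1 fibroblast marker called, and it was lower (-0.54, edgeR adjusted p = 0.0181), while Col1a1, Col1a2, Col3a1 and Pdgfrb had 0 to 11 counts. Endothelial markers summed to 0.617 to 2.05 CPM over 5 genes. The part of these marker differences in the results below was not tested. In bulk RNA, fewer cells that express a gene and less RNA per cell cannot be told apart.

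Of the 54 genes, 26 passed a filter on low counts and were tested, 20 had 0 counts in all 6 libraries, and 8 had at most 5 counts in any library. The 26 held 2 classical and 10 nonclassical class I genes, 5 class II genes, all 6 light chain and peptide loading genes, Nlrc5, 1 pseudogene (H2-K2) and H2-Ke6. The last is named for its position and encodes a hydroxysteroid dehydrogenase. The filter asked for about 0.673 CPM in at least 3 libraries, and 21 of the 26 reached that in all 6. The classical genes, the transporter and the class II genes are taken in turn after the overall counts.

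After knockdown 7 of the 26 tested genes were higher and 1 was lower (edgeR quasi-likelihood test, adjusted p below 0.05 over all genes). The higher ones were Nlrc5, Tap1, Erap1, H2-T22, H2-M3, H2-Q1 and H2-Eb1, and the lower one was H2-DMb1. Over all 11975 genes tested, 20.6% passed, 9.92% higher and 10.7% lower, against 30.8% of these 26. The median log2 fold change was -0.01 over the 26 and -0.03 over all genes tested. With upper-quartile scaling 6 were higher and 2 lower, Nlrc5 losing its call (adjusted p = 0.0629) and H2-Bl gaining one. The CPM values of the groups did not overlap at 17 of the 26 genes, 11 with the knockdown above and 6 below, and 44.9% of all genes tested did not overlap. The difference between these shares was not tested.

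**Figure D1:**
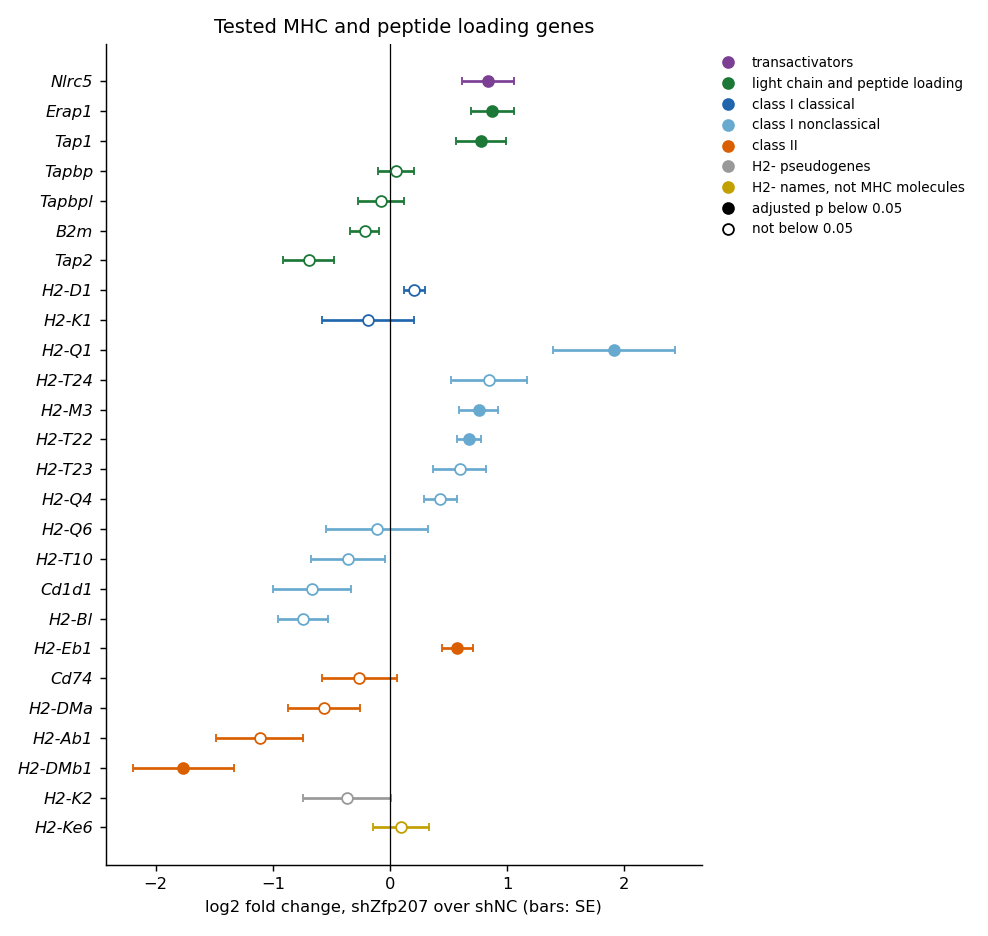
Log2 fold change of knockdown over control for each of the 26 tested genes, grouped by class (colour), with the SE as a bar; filled points passed an edgeR adjusted p of 0.05. Of the 8 filled points 7 lie to the right of 0, among them 3 nonclassical class I genes, and both classical class I genes have open points near 0.

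Leaving out shNC 1 raised the number of calls, and leaving out any other library lowered it. All 8 calls held without shNC 1. In that fit 10 genes were higher and 5 lower of the 26, where 52.1% of all genes tested passed. The further genes called there were H2-D1, H2-Q4 and H2-T23 among the higher, and B2m, Tap2, H2-Ab1 and H2-Bl among the lower. Leaving out shNC 2 left 2 higher and 1 lower, shNC 3 left 1 and 1, and shZfp207 1, 2 or 3 left 1, 1 or 0 higher and 0 lower, in fits where fewer genes of the whole table passed as well. Without shZfp207 3, where edgeR called 0 of the 26, 12 had an unadjusted p below 0.05, against 14 with all libraries. The share of all genes with such a p was not counted. With all libraries DESeq2 called 11 of 28 members, and 1502 genes higher and 1526 lower of 14027. H2-T22 kept its call in 5 of the 6 such fits, losing it without shZfp207 3 (adjusted p = 0.0541). Erap1 kept its call without shNC 1 or 2, H2-DMb1 without shNC 1 or 3, and Nlrc5, Tap1, H2-M3, H2-Q1 and H2-Eb1 only without shNC 1. None of these 8 changed direction in any of the 6 fits.

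**Figure D2:**
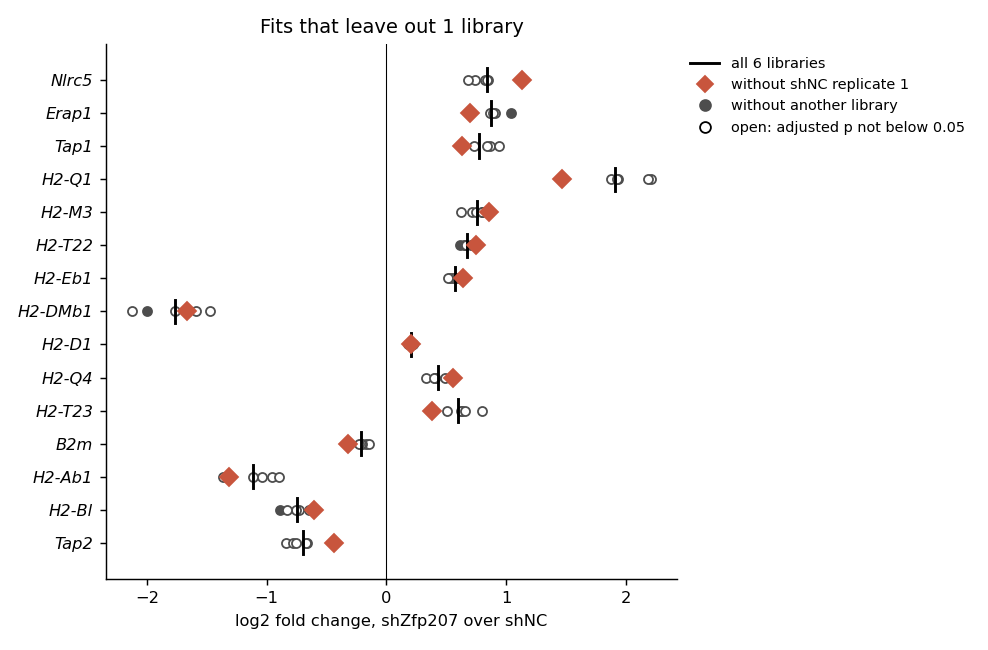
Log2 fold change with each library left out in turn (points) and with all 6 (black bar), for the 8 genes called with all libraries and 7 more that were called without shNC 1. Filled points passed an edgeR adjusted p of 0.05. The fit without shNC 1 (diamonds) calls all 15 genes, and each row stays on its side of 0.

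Among the classical class I genes, H2-D1 was abundant and H2-K1 was nearly absent. H2-D1 (ENSMUSG00000073411, chromosome 17, 35262730 to 35267499 on the plus strand in mm10) stood at 581, 559 and 585 CPM in shNC 1, 2 and 3 and at 686, 639 and 647 CPM in shZfp207 1, 2 and 3. The groups did not overlap, and the knockdown libraries were the higher ones, but the difference did not pass the test (log2 fold change 0.21 with SE 0.09, edgeR adjusted p = 0.147). It passed without shNC 1 (0.21, adjusted p = 0.00616). H2-K1 (ENSMUSG00000061232, chromosome 17, 33996017 to 34000333 on the minus strand) was counted 7, 14 and 12 times in shNC 1, 2 and 3 and 14, 7 and 9 times in shZfp207 1, 2 and 3. These are 0.464 to 0.959 CPM, the groups overlapped, and the log2 fold change came to -0.19 (SE 0.40, edgeR adjusted p = 0.769). Its direction turned to 0.01 without shNC 2 and without shZfp207 2.

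The gap between these genes was far larger than the spread over libraries. Levels of different genes are compared per length, as CPM per kilobase of merged GENCODE M21 exons. On that scale H2-D1 was at 223 ± 5.44 in control and 255 ± 9.84 in knockdown cells (SD, n = 3 each), and H2-K1 at 0.259 ± 0.0638 and 0.227 ± 0.0788. The ratio of H2-D1 to H2-K1 ranged from 664 to 1128 in the control libraries and from 851 to 1568 in the knockdown libraries. Of the 50-base words in H2-K1 transcripts 9.63% also occur in transcripts of other genes, and of those in H2-D1 12.8%, and how the counting treated reads from such words is not stated in the labels.

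Transcripts of B2m were the most abundant of the 54 per length, and their change did not pass the test. B2m (chromosome 2, 122147686 to 122153083) stood at 556, 690.3 and 711 CPM in shNC 1, 2 and 3 and at 554, 552 and 564 CPM in shZfp207 1, 2 and 3. shNC 1 lay with the knockdown libraries and the other controls lay above them, so the groups overlapped (log2 fold change -0.22 with SE 0.12, edgeR adjusted p = 0.256). Without shNC 1 B2m was lower in the knockdown (-0.32, adjusted p = 0.000328).

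**Figure D3:**
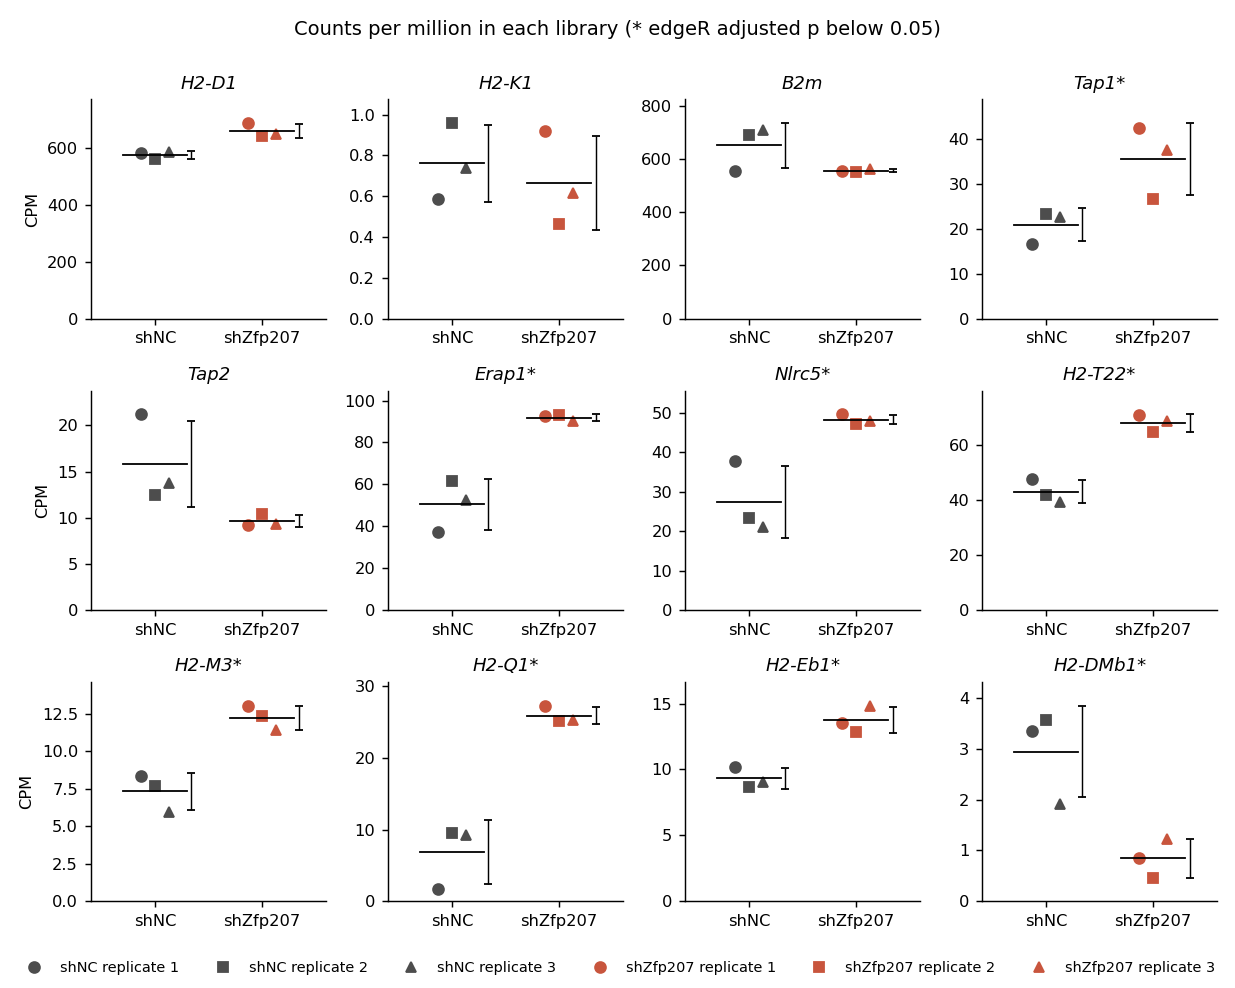
CPM in each library (points, by replicate) with the group mean (line) and SD (bar, n = 3) for 12 genes, each axis starting at 0; an asterisk marks an edgeR adjusted p below 0.05. The control libraries of H2-Q1, Nlrc5, Tap2 and Erap1 are spread by replicate 1, whereas H2-T22 and H2-D1 are tight in both groups.

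The transporter genes lay on opposite sides of 0, and the change passed for Tap1 alone. Tap1 (chromosome 17, 34187553 to 34197225) stood at 16.7, 23.3 and 22.6 CPM in shNC 1, 2 and 3 and at 42.3, 26.7 and 37.4 CPM in shZfp207 1, 2 and 3. All knockdown libraries lay above all controls, with shZfp207 2 close to them, and Tap1 rose (log2 fold change 0.77 with SE 0.21, edgeR adjusted p = 0.0455). Tap2, which lies beside it on chromosome 17 (34203527 to 34216321), stood at 21.2, 12.5 and 13.8 CPM in shNC 1, 2 and 3 and at 9.25, 10.35 and 9.3 CPM in shZfp207 1, 2 and 3. All knockdown libraries were below the controls, and the difference did not pass (log2 fold change -0.70 with SE 0.22, edgeR adjusted p = 0.0636), while it passed without shNC 1 (-0.44, adjusted p = 0.0139). Up to 18.5% of the exonic bases of Tap2 overlap genes on the other strand and 3.87% of those of Tap1 overlap Psmb9, so that without a known strand setting some reads may belong to these.

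Of the other loading genes only the trimming enzyme rose. Erap1 (chromosome 13, 74639872 to 74691875) stood at 37.4, 61.5 and 52.6 CPM in shNC 1, 2 and 3 and at 92.5, 93 and 90 CPM in shZfp207 1, 2 and 3, which all lay above the controls (log2 fold change 0.87 with SE 0.18, edgeR adjusted p = 0.0202). Of its exonic bases 11.5% overlap Cast on the other strand. Tapbp ranged from 41 to 59.1 CPM in controls and from 50.5 to 56.4 CPM in knockdown libraries (log2 fold change 0.05 with SE 0.15, edgeR adjusted p = 0.838), and its sign turned with upper-quartile scaling and without shNC 1. Tapbpl ranged from 12 to 19.1 and from 13.8 to 16.8 CPM (-0.07, SE 0.20, edgeR adjusted p = 0.818), with a turned sign without shNC 3. In both tapasin-type genes the control libraries spanned the knockdown libraries.

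Of the transactivators, that of class I was expressed and that of class II was at or near 0 counts. Nlrc5 (chromosome 8, 94472763 to 94527272) stood at 37.8, 23.4 and 21 CPM in shNC 1, 2 and 3 and at 49.6, 47.2 and 48 CPM in shZfp207 1, 2 and 3. It was highest among controls in replicate 1, still below every knockdown library, and it rose (log2 fold change 0.84 with SE 0.22, edgeR adjusted p = 0.0393). Without shNC 1 the log2 fold change was 1.13 (adjusted p = 6.98e-05). Ciita had 0 counts in 5 libraries and 1 count in shZfp207 3, and the limit set by a count of 0 was 0.185 to 0.251 CPM over the libraries (3 counts, counting error only).

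Among the nonclassical class I genes, 3 of the 10 tested rose (30% called, against 20.6% of all genes tested, 9.92% higher). The number that rose was 5 without shNC 1, and 0 or 1 with any other library left out. H2-Q1, a gene of the Q region (chromosome 17, 35320405 to 35325099), had the largest change, with 1.68, 9.59 and 9.29 CPM in shNC 1, 2 and 3 and 27.3, 25.2 and 25.3 CPM in shZfp207 1, 2 and 3. shNC 1 was far below the other controls, and these were below the knockdown libraries. The log2 fold change came to 1.91 (SE 0.52, edgeR adjusted p = 0.0448) with all libraries and 1.46 (SE 0.09, edgeR adjusted p = 4.69e-05) without shNC 1. On the length-scaled level H2-Q1 moved from rank 15 of the 26 genes in control cells to rank 8 in knockdown cells. Of its 50-base words 15% are shared, most with H2-Q2, which had 0 to 4 counts per library, and then with the abundant H2-D1 and with H2-Q10. What share of the H2-Q1 counts came from such words was not tested.

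H2-T22 (chromosome 17, 36037128 to 36042747), whose product is bound by receptors of some gamma delta T cells, stood at 47.8, 41.9 and 39.4 CPM in shNC 1, 2 and 3 and at 70.7, 64.5 and 68.6 CPM in shZfp207 1, 2 and 3. The groups were tight and well apart (log2 fold change 0.67 with SE 0.10, edgeR adjusted p = 0.00834). Of its 50-base words 53.5% are shared, chiefly with H2-T10, and 29.4% of its exonic bases overlap a gene on the other strand, so its level is uncertain. H2-T10 itself, with 50.4% of its words shared, ranged from 2.58 to 5.11 CPM in controls and from 2.53 to 2.76 CPM in knockdown libraries (log2 fold change -0.36 with SE 0.31, edgeR adjusted p = 0.461).

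H2-M3 (chromosome 17, 37270220 to 37274484) presents peptides that begin with N-formylmethionine, such as those of bacteria and mitochondria. It stood at 8.38, 7.68 and 5.97 CPM in shNC 1, 2 and 3 and at 13, 12.3 and 11.4 CPM in shZfp207 1, 2 and 3. All knockdown libraries were above the controls (log2 fold change 0.75 with SE 0.17, edgeR adjusted p = 0.0233), and 0.576% of its 50-base words are shared.

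The other 7 nonclassical genes did not pass with all libraries. H2-T23, which encodes Qa-1, the ligand of the inhibitory receptor CD94/NKG2A of natural killer and CD8+ T cells, stood at 32.7, 60.1 and 50.3 CPM in shNC 1, 2 and 3 and at 80.8, 69.1 and 65.1 CPM in shZfp207 1, 2 and 3. The groups did not overlap, and shNC 1 was the lowest library (log2 fold change 0.60 with SE 0.23, edgeR adjusted p = 0.108). H2-Q4 stood at 42.3, 30.5 and 34.3 CPM in shNC 1, 2 and 3 and at 49.6, 49.6 and 43.5 CPM in shZfp207 1, 2 and 3, all above the controls (0.43, SE 0.14, edgeR adjusted p = 0.0734), and 36.4% of its words are shared. H2-T24 had a log2 change of 0.84 (edgeR adjusted p = 0.113) at 1.26 to 3.71 CPM over the 6 libraries.

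H2-Bl and Cd1d1 lay on the other side. H2-Bl, which GENCODE lists as a polymorphic pseudogene, stood at 9.3, 6.03 and 7.82 CPM in shNC 1, 2 and 3 and at 4.66, 3.91 and 5.06 CPM in shZfp207 1, 2 and 3, all below the controls (log2 fold change -0.75 with SE 0.21, edgeR adjusted p = 0.0505). It passed under RLE scaling, under upper-quartile scaling, with DESeq2, and without shNC 1 or shNC 2. Cd1d1, which presents lipids to natural killer T cells, ranged from 2.03 to 4.11 CPM in controls and from 1.64 to 1.79 CPM in knockdown libraries (-0.67, SE 0.33, edgeR adjusted p = 0.201). H2-Q6, of the Qa-2 genes, overlapped between groups at 0.617 to 1.59 CPM. H2-Q10, the gene of a secreted class I molecule made by the liver, had 3 counts in shNC 3 and 0 elsewhere. Of the 16 nonclassical genes that could not be tested 13 had 0 counts in all libraries, among them 10 of the M region.

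**Figure D4:**
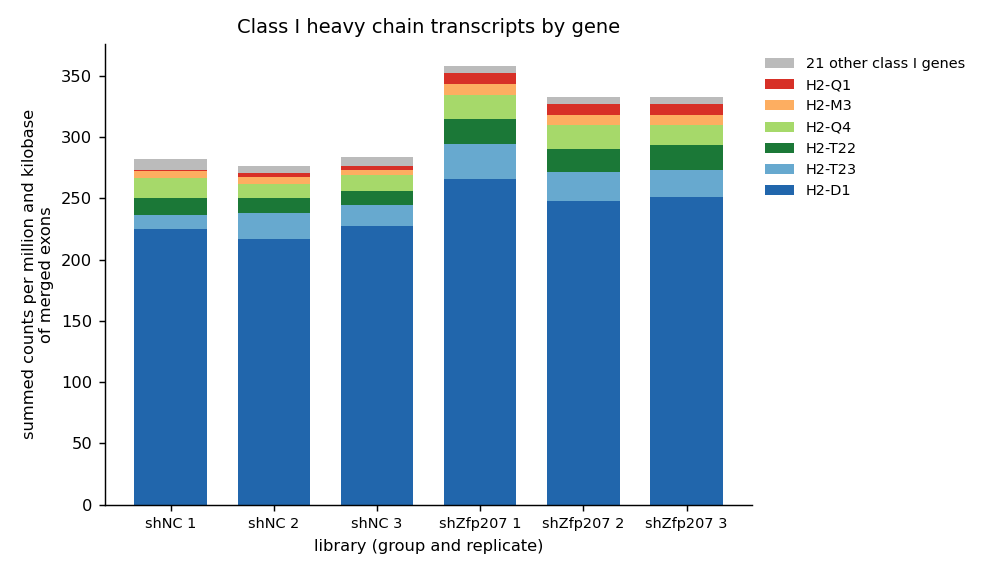
Summed length-scaled level of 27 class I heavy chain genes in each library, stacked by gene. H2-D1 makes up 78.5% to 80% of the sum in the controls and 74.3% to 75.4% in the knockdown libraries.

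The make-up of class I heavy chain transcripts was dominated by 1 gene. Over 27 heavy chain genes, Cd1d1 left out, H2-D1 made up 79.5% ± 0.812 of the summed length-scaled level in control cells and 74.8% ± 0.566 in knockdown cells (SD, n = 3 each). With the deposited FPKM in place of merged exon lengths these shares were 83.8% ± 0.595 and 79.8% ± 0.445. The sum itself was 281 ± 4.01 in control and 341 ± 14.7 in knockdown libraries, and B2m stood at 2.29 to 2.91 times the sum in the controls and 1.8 to 1.97 times in the knockdown libraries. H2-Q1 went from 0.208% to 1.22% of the sum in the controls to 2.65% to 2.67% in the knockdown libraries. H2-D1 makes up most of the sum and B2m is not part of it, and neither gene's difference passed the edgeR test with all libraries. The sum also holds H2-T22, H2-Q1 and H2-M3, which did pass, and no gene of the sum was called lower. Their mean levels were 12.6, 2.4 and 5.11 in control and 19.9, 9.07 and 8.52 in knockdown cells, in the order H2-T22, H2-Q1 and H2-M3.

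**Figure D5:**
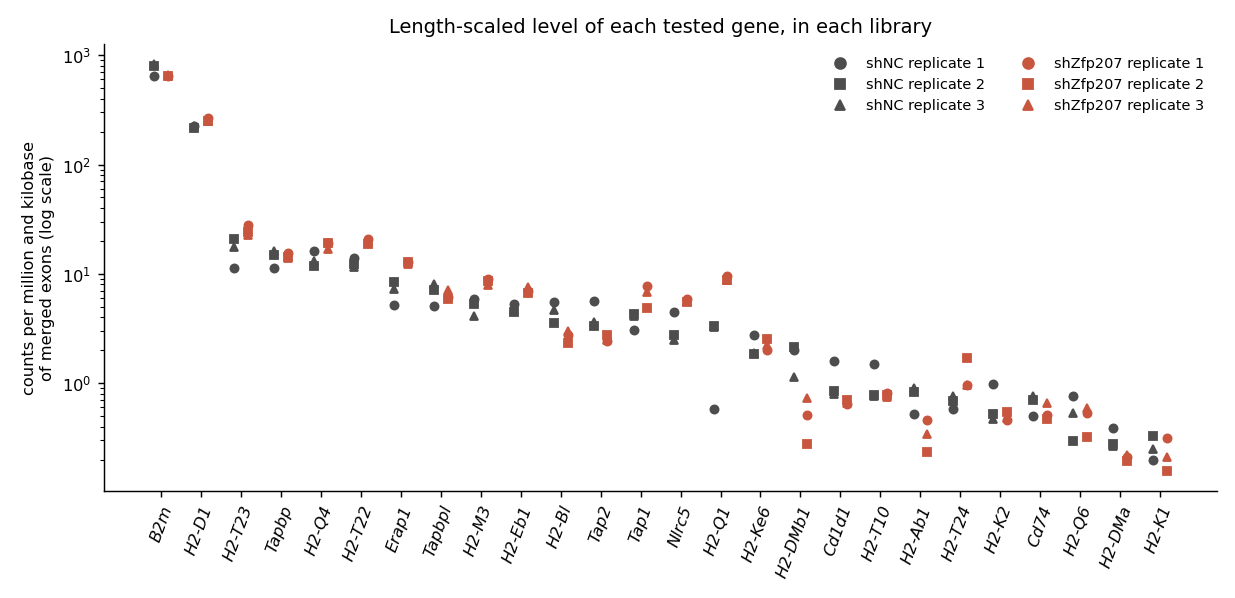
Length-scaled level (log axis) of each of the 26 tested genes in every library, ordered by the mean in control cells. B2m and H2-D1 stand apart above all other genes in every library, and H2-K1 has the lowest mean of the 26 in control cells.

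In the order of length-scaled levels in control cells, B2m (758 ± 97.8) and H2-D1 (223 ± 5.44) came first, apart from each other and from all other genes (SD, n = 3). H2-T23 (16.5 ± 4.81), Tapbp (14.2 ± 2.59), H2-Q4 (13.8 ± 2.32) and H2-T22 (12.6 ± 1.26) followed and did not differ beyond their spread. Erap1 (6.93 ± 1.67), Tapbpl (6.76 ± 1.54), H2-M3 (5.11 ± 0.862) and H2-Eb1 (4.8 ± 0.41) came next. There was no clear break between these and H2-Bl (4.59 ± 0.974) or Tap2 (4.18 ± 1.24). The lowest were H2-Q6, H2-DMa and H2-K1, at 0.53, 0.312 and 0.259. In knockdown cells H2-T22 (19.9 ± 0.924) lay above Tapbp (14.6 ± 0.843), where in control cells they had not differed beyond their spread.

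Class II genes were low apart from H2-Eb1, and of the 5 tested 1 rose and 1 fell (40% called, against 20.6% of all genes tested). H2-Eb1 (chromosome 17, 34305877 to 34316199), which encodes the beta chain of the E molecule, stood at 10.22, 8.7 and 9.05 CPM in shNC 1, 2 and 3 and at 13.5, 12.9 and 14.8 CPM in shZfp207 1, 2 and 3. All knockdown libraries were above the controls, and H2-Eb1 rose (log2 fold change 0.57 with SE 0.13, edgeR adjusted p = 0.0264). The partner alpha chain gene is annotated as the polymorphic pseudogene H2-Ea-ps and had 0 counts in all libraries. No 50-base word of H2-Eb1 transcripts was found in another gene's transcripts.

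H2-DMb1 encodes a chain of H2-DM, the molecule that exchanges peptides on class II. It (chromosome 17, 34153072 to 34160230) was counted 40, 52 and 31 times in shNC 1, 2 and 3 and 13, 7 and 18 times in shZfp207 1, 2 and 3. These are 3.35, 3.56 and 1.91 CPM against 0.853, 0.464 and 1.23 CPM, with no overlap. H2-DMb1 fell (log2 fold change -1.77 with SE 0.43, edgeR adjusted p = 0.0323). Of its words 22.7% are shared, with H2-DMb2. H2-DMb1 reached the filter level of about 0.673 CPM in 3 control and 2 knockdown libraries, so the controls alone met the filter. H2-DMa, its partner, had 14 to 16 counts in controls and 10 or 11 in knockdown libraries (-0.56, SE 0.31, edgeR adjusted p = 0.24). H2-Ab1, the beta chain of the A molecule, stood at 1.34, 2.12 and 2.34 CPM in shNC 1, 2 and 3 and at 1.18, 0.597 and 0.889 CPM in shZfp207 1, 2 and 3, all below the controls (-1.11, SE 0.37, edgeR adjusted p = 0.0777). Its partner H2-Aa had 0 to 5 counts per library. Cd74, the invariant chain that escorts class II, had 10 to 21 counts per library (-0.26, SE 0.32, edgeR adjusted p = 0.598). H2-DMb2, H2-Oa and H2-Ob had 0 counts in all 6. Leukocyte and antigen-presenting cell markers summed to at most 5.45 CPM, and their part in these low class II counts was not tested.

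Genes that act around this pathway were read from 6 lists of 71 genes, chosen with earlier results of these data known. Over the lists 64 genes were tested, of which 7 were higher and 11 lower (28.1% called, against 20.6% of all genes tested, 9.92% higher and 10.7% lower), and the median log2 fold change was 0.05, against -0.03 over all genes. Among 9 chaperones and channels of the endoplasmic reticulum, 2 rose and 1 fell. Ganab, the glucosidase II subunit that trims glycans for calnexin binding, rose by 0.56 on the log2 scale (SE 0.09, edgeR adjusted p = 0.00816) and Uggt1, the glycoprotein folding sensor, by 0.53 (adjusted p = 0.0409). H13, the signal peptide peptidase, had a log2 change of -0.62 (adjusted p = 0.00885). Calr, Canx and Pdia3, whose products sit in the loading complex with tapasin, had log2 fold changes of -0.20, 0.18 and -0.26 and did not pass (adjusted p = 0.356, 0.244 and 0.159).

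The inducible immunoproteasome subunits did not pass. Of 7 genes of the immunoproteasome, its assembly and its activators only Psme3, the nuclear activator subunit, rose (log2 fold change 0.34 with SE 0.09, edgeR adjusted p = 0.0394). Psmb9, which is transcribed away from Tap1 from the same upstream region, had a log2 change of 0.41 (SE 0.26, adjusted p = 0.309) with TMM-scaled means of 1.79 ± 0.415 CPM in control and 2.39 ± 0.147 CPM after knockdown (SD, n = 3 each). Psmb8 and Psmb10 had log2 fold changes of -0.02 and 0.08. Of 9 peptidases that shorten or destroy peptides 1 passed, Thop1, a cytosolic peptidase that destroys peptides before transport (-0.54, SE 0.12, adjusted p = 0.0247). The shares called were 14.3% and 11.1% in these 2 lists, against 20.6% of all genes tested.

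Of 22 regulators of MHC transcription 3 rose and 4 fell (31.8% called, against 20.6% of all genes tested). Irf1, the interferon-induced activator of class I genes and of Tap1, stood at 21.3, 22.1 and 22.8 CPM in shNC 1, 2 and 3 and at 33.1, 35.7 and 33.4 CPM in shZfp207 1, 2 and 3 (log2 fold change 0.64 with SE 0.10, edgeR adjusted p = 0.00865). The RFX complex, which binds the X box with NLRC5 or CIITA, was split: Rfx5 had a log2 change of 0.52 (adjusted p = 0.0228) and Rfxap one of -0.54 (adjusted p = 0.0241), while Rfxank did not pass (-0.32, adjusted p = 0.143). Irf8 had a log2 change of -0.58 (SE 0.11, adjusted p = 0.0153).

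Of 8 tested class I-like genes and ligands of the activating receptor NKG2D, 1 rose and 1 fell (25% called, against 20.6% of all genes tested). Procr, the endothelial protein C receptor with a class I-like fold, had a log2 change of 0.53 (SE 0.13, edgeR adjusted p = 0.0336). Mr1, which presents vitamin metabolites to mucosal-associated invariant T cells, had one of -0.47 (SE 0.13, adjusted p = 0.0491). The NKG2D ligand genes Ulbp1, Raet1e and H60b did not pass. Of 9 tested genes of class II processing and costimulation 4 fell (44.4% called, against 20.6% of all genes tested). They were Cd40 (-1.10), Ctsl (-0.91), Ap1m1 (-0.38) and Ctsd (-0.47), with edgeR adjusted p of 0.0174, 0.0244, 0.0318 and 0.045. Cd80 lay on the other side, with 7 to 24 counts in controls and 44 to 54 in knockdown libraries. Its change did not pass (edgeR adjusted p = 0.0591). Genes of this list called higher numbered 0 in edgeR with all libraries, 1 with DESeq2 and 2 without shNC 1. Ctsl, the cathepsin that degrades the invariant chain, was at 2005 CPM in shNC 1, 1259 CPM in shNC 2, 1217 CPM in shNC 3 and 773 to 794 CPM after knockdown.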

How the data were processed

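The deposited count table holds whole-number read counts per gene and library without normalization, and the deposited FPKM table covers the same genes. Per the submitters' processing notes the tools were featureCounts 1.5.0-p3 and HISAT2 2.0.5 and the build mm10. The sources used here do not give the annotation, the strand setting or filters. The gene length implied by the deposited counts and FPKM exceeded the gene's own span at 6 of the 26 tested members, so levels of different genes were set on merged exons of GENCODE M21 (GRCm38, the assembly mm10 denotes), a choice made after seeing the data.

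The test on counts was that of edgeR 4.0.16 under R 4.3.3 (filterByExpr, TMM, quasi-likelihood, group as the only term, 6 libraries, two-sided, Benjamini-Hochberg over 11975 genes, threshold 0.05). The procedure was tested on simulated data in which no library stood apart from its group, so that test does not cover a library such as shNC 1. SE is the log2 fold change over the root of F. CPM per library is not TMM-scaled. Alternatives were RLE and upper-quartile scaling, 2 other filters, DESeq2 1.42.0, a replicate block and leaving out each library. Members and lists were chosen with earlier results of these data known. Named were Zfp207, members past the threshold, all tested classical, loading and regulator members, other members by values or counts, and up to 4 called genes per list; further list genes were named after their values were seen. Shared words are 50-base words found in GENCODE transcripts of another gene, on either strand. No per-sample column was left out.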

Additional observations from a re-analysis of the deposited data

How the results depend on the processing

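Of the 28 untested genes 20 had 0 counts in all 6 libraries and 8 had at most 5 counts in any library. Whether greater depth would bring them into the test was not tested. Values of genes near 1 CPM rest on few counts. Zfp207 kept its direction and its call under every alternative, at -2.11 to -1.82 with 1 library left out. Over the alternatives the 26 tested members gave 309 log2 fold changes, of which 244 kept direction and side of the threshold, 41 lost the call, 13 gained one and 11 turned direction. Of 180 such values of the related genes named by rule, 100 kept both and 80 lost the call. Where no cause is given, the cause was not tested.

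With 1 library left out, the members called ranged from 0 to 10 higher and from 0 to 5 lower, the related genes from 0 to 17 higher and from 0 to 19 lower, and all genes from 296 to 3158 higher and from 238 to 3155 lower. All the highest counts came without shNC 1. The fit with a replicate block called 2 members higher (H2-T22 and Erap1) and 0 lower, 2 related genes higher and 1 lower, and 534 genes higher and 453 lower of all. Libraries of the same number correlated at 0.0045, 0.023 and 0.046 in their deviations from the group means. Those of different numbers correlated at -0.042 to 0.011. These values, from 3 libraries per group, do not settle whether the numbers pair the samples. In the edgeR fit with a replicate block 12 members had an unadjusted p below 0.05, and the share of all genes with such a p was not counted. Members called lower numbered 2 under RLE scaling, 2 under upper-quartile scaling and 3 with DESeq2. Without a filter on low counts 4 related genes were higher and 6 lower, with more genes tested. H2-D1 made up 83.8% of class I heavy chain FPKM in control and 79.8% in knockdown cells, against 79.5% and 74.8% on merged exons.

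Direction turned at H2-K1 (-0.48 to 0.014 with 1 library left out), H2-K2 (-0.57 to 0.0096), H2-Ke6 (-0.0047 to 0.29), H2-Q6 (-0.40 to 0.21), H2-T10 (-0.53 to 0.017), Tapbp (-0.093 to 0.16, and -0.0043 with upper-quartile scaling) and Tapbpl (-0.24 to 0.081).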

Other observations

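Within the stretch of chromosome 17 that runs from the first to the last H2- gene (33974831 to 37483552), 75 tested genes were no members, of which 1 was higher and 8 lower (12% called). Of the 19 members tested there 5 were higher and 1 lower (31.6% called). Over all genes tested 20.6% were called, 9.92% higher and 10.7% lower. The differences between these shares were not tested. The higher neighbour was Prrc2a (log2 fold change 0.60, edgeR adjusted p = 0.0115), and the lower ones included the sialidase gene Neu1 (-0.85, edgeR adjusted p = 0.0481), the casein kinase subunit gene Csnk2b (-0.55, edgeR adjusted p = 0.0286) and Trim15 (-1.73, edgeR adjusted p = 0.0318), all named after their values were seen. The 2 transporter genes and the immunoproteasome genes between and beside them lie in the same stretch, and of that cluster Tap1 was the one gene called.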
